A study of Caenorhabditis elegans with 6 samples.

Results

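The abu and pqn genes of Caenorhabditis elegans were followed here in L4 animals of the WT strain and of the pals-25(icb98) mutant. Members were all genes whose WormBase symbol starts with abu- or pqn-, except abu-5, pqn-76, pqn-78 and pqn-79, and were found by their sequence names among the listed transcripts. Of the 70 abu and pqn genes listed, 66 were therefore members, 13 of them abu and 53 pqn, out of 22010 genes in all. Membership followed the symbol alone.

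Proteins of both families are rich in glutamine and asparagine. The abu genes ("activated in blocked unfolded protein response") were named for their induction by endoplasmic reticulum stress in worms that lack XBP-1 signalling, and several abu genes with related pqn genes are expressed in the pharynx in time with the molts, where ABU-14 is needed for the pharyngeal cuticle. The pqn genes ("prion-like, glutamine/asparagine-rich") were named for protein composition alone, so that the symbol joins pharyngeal abu relatives with unrelated genes such as pqn-59, the worm homolog of the stress granule protein UBAP2L.

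RNA came from whole animals, with 3 libraries called biological replicates in each group. The transgene icbIs4 (chil-27p::gfp, col-12p::mCherry) is present in WT and mutant alike, and the mutant carries in addition the gain-of-function allele icb98, a premature stop codon in pals-25 recovered after chemical mutagenesis. All animals were grown from bleached embryos at 20°C on E. coli OP50 and no pathogen was added. The mutant was represented by a single allele in a single strain. The comparison asks which genes differ in the mutant when no infection is present.

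The libraries held between 40709626 and 47297002 estimated counts. As a check of the labels, chil-27, whose reporter defined the mutant, had a log2 change of 8.09 (adjusted p = 7.87e-05, edgeR), while the level of pals-25 itself cannot show a point mutation. WT replicate 2 stood apart from its group. Between WT replicates 1 and 3, 15 genes differed more than 2-fold, and between pairs of mutant libraries 11 to 29, whereas WT replicate 2 differed from the other WT libraries at 2078 and 1839 genes. Sets of markers moved with this library and with the mutant, as given after the members. Counts of members called are therefore also given without WT replicate 2. In RNA from whole animals, fewer cells of a type and less RNA per cell cannot be told apart.

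The abu genes were mostly higher in pals-25(icb98). Of the 13 abu genes, all of which passed the filter on low counts, 10 rose, 1 fell and 2 were not called. A call was an adjusted p under 0.05 in edgeR's quasi-likelihood test over 16166 genes. Over all tested genes, 20.5% were called, 9.8% as higher and 10.7% as lower. The median log2 change of the abu genes was 1.95, where the median of all tested genes was 0.01. In 11 abu genes every mutant library was above every WT library and in 1 every mutant library was below, a separation that 24.4% and 24.8% of all tested genes showed in the respective directions (11 and 2 abu genes, 30.5% and 30.8% of all genes, without WT replicate 2). Leaving out WT replicate 2 gave 10 abu genes higher and 2 lower, when 19.3% and 18.2% of all genes were called in these directions. The number of abu genes called higher was lowest, at 7 (53.8%), without mutant replicate 1, when 4.21% of all genes were called higher.

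The pqn genes were called higher more often than all genes, but lower about as often. Of 53, 52 were tested, and 12 rose, 6 fell and 34 were not called, so that 34.6% were called in place of 84.6% of the abu genes. The risers were 23.1% and the fallers 11.5% of the tested pqn genes, against 9.8% and 10.7% of all tested genes. Their median log2 change was 0.02, near that of all genes, and changed sign with upper-quartile scaling (-0.01). Without WT replicate 2 there were 15 pqn genes higher and 11 lower (28.8% and 21.2%, against 19.3% and 18.2% of all genes). Without mutant replicate 1 there were 5 and 1 (9.62% and 1.92%, against 4.21% and 1.98% of all genes). The remaining gene, pqn-16, had 5, 3 and 5 estimated counts in the WT libraries and 2, 5 and 4 in the mutant libraries, too few to test. Rises of more than 4-fold were called for 4 abu and 5 pqn genes, and for 2.62% of all tested genes. Leaving out WT replicate 2 left 3 abu genes, 4 pqn genes and 2.76% of all genes. Without WT replicate 1 there were 8 abu genes, 4 pqn genes and 2.51% of all genes.

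**Figure D1:**
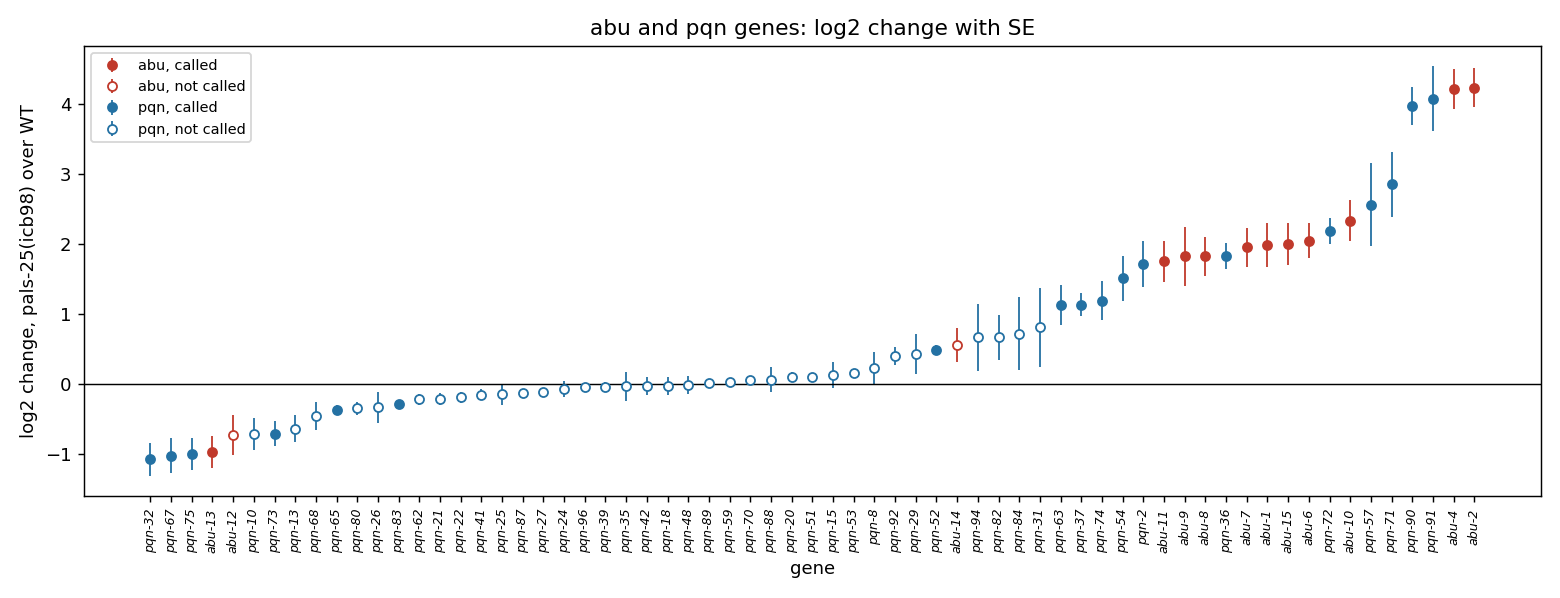
The log2 change of pals-25(icb98) over WT (y axis) is plotted for each of the 65 tested genes (x axis, ordered by value), with bars for the standard error, abu genes in red, pqn genes in blue and called genes filled. Most abu genes lie near or above 1.75, whereas most pqn genes lie near 0.

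Summed on the TPM scale (estimated counts per effective length, scaled to a common total), the abu genes had 851, 447 and 790 TPM in WT replicates 1 to 3 and 1754, 1473 and 1702 TPM in mutant replicates 1 to 3. The means were 696 ± 218 and 1643 ± 150 TPM (SD, n = 3), and the groups did not overlap. The pqn genes together were more abundant and differed less, with 1923, 1675 and 1857 TPM in WT and 2390, 2242 and 2344 TPM in the mutant (1819 ± 129 and 2325 ± 75.7 TPM, SD, n = 3). Most pqn genes did not share this summed difference, since their median log2 change was 0.02 and 34 of 52 were not called. In both sums WT replicate 2 was the lowest of the 6 libraries and mutant replicate 2 the lowest of the mutant libraries.

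The largest rises in the abu family were those of abu-2 and abu-4, genes with 2 coding exons on chromosomes X and V that were low in WT. Levels of single genes are given as CPM, which are counts relative to the TMM-adjusted size of each library, in the order of replicates 1 to 3. The CPM of abu-2 was 3.98, 1.91 and 3.32 in WT and 65.2, 52.5 and 55.8 in the mutant. For abu-4 the CPM was 7.63, 3.71 and 6.59 in WT and 121, 98.1 and 113 in the mutant. For both genes the WT libraries were far below all mutant libraries, with WT replicate 2 the lowest. The fitted log2 changes were 4.23 ± 0.28 (SE) for abu-2 and 4.21 ± 0.28 for abu-4, with adjusted p of 5.24e-04 and 5.74e-04 in edgeR, 18.7-fold and 18.5-fold. Both calls held in each fit that left out a library. Without WT replicate 2 the log2 changes were 3.98 and 3.96.

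A second set of abu genes rose by about 4-fold from higher WT levels. The neighbours abu-15 (5158602 to 5159907, plus strand), abu-6 (5160678 to 5161892, minus strand) and abu-7 (5163270 to 5164782, minus strand) on chromosome V lie 770 and 1377 bp apart, with abu-8 28212 bp further on (5192995 to 5194608, minus strand). Their levels were 50.3, 25.3 and 55.2 CPM in WT against 180, 149 and 193 CPM in the mutant for abu-15, and 33.2, 20.7 and 38.5 CPM against 136, 106 and 139 CPM for abu-6. The gene abu-7 had 49, 26.8 and 54.5 CPM in WT and 185, 140 and 178 CPM in the mutant, and abu-8 had 93.1, 47.5 and 91.8 CPM in WT and 291, 236 and 293 CPM in the mutant. Each of the 4 genes showed the same order, with WT replicate 2 at the bottom, WT replicates 1 and 3 close together, and all mutant libraries above them. The log2 changes in edgeR were 1.99 ± 0.30 (SE, adjusted p = 0.0101) for abu-15, 2.04 ± 0.25 (0.00517) for abu-6, 1.95 ± 0.28 (0.00879) for abu-7 and 1.82 ± 0.27 (0.00997) for abu-8. All 4 calls held whichever library was left out.

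Reads of closely related copies can be divided between them by the estimation, so the 3 adjacent genes were also summed, an alternative chosen after the data were seen. Together abu-15, abu-6 and abu-7 had 132, 72.8 and 148 CPM in WT and 501, 394 and 509 CPM in the mutant. The sum had a log2 change of 1.99 ± 0.28 (SE, adjusted p = 0.00799, edgeR), close to that of each gene.

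The genes abu-10 on chromosome X, abu-1 on chromosome V and abu-11 on chromosome II also rose. In abu-10, the only called riser of the family with more than 4 coding exons (7), the CPM was 31.9, 16.1 and 32.3 in WT and 151, 116 and 137 in the mutant. In abu-1 it was 79.1, 37.1 and 79.2 in WT and 281, 219 and 271 in the mutant, and in abu-11 it was 89.8, 41.1 and 79.4 in WT and 262, 201 and 243 in the mutant. None of these groups overlapped, and WT replicate 2 had between 46.8% and 50.1% of the mean CPM of the other WT libraries. The log2 changes were 2.33 ± 0.29 (SE, adjusted p = 0.00548, edgeR) for abu-10, 1.98 ± 0.31 (0.0111) for abu-1 and 1.75 ± 0.30 (0.0143) for abu-11. The call of abu-1 was lost without mutant replicate 1 (adjusted p = 0.0529, edgeR) and that of abu-11 without mutant replicate 1 (0.0655) or mutant replicate 3 (0.0602).

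**Figure D2:**
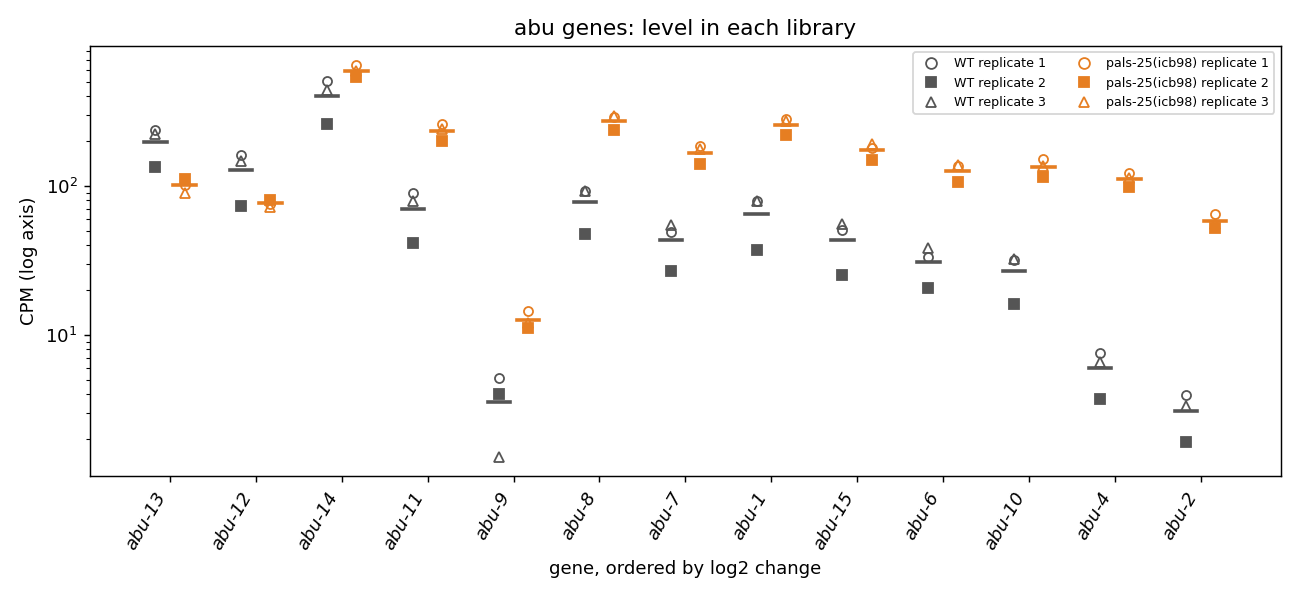
CPM on a log axis is plotted for the 13 abu genes, ordered by log2 change, with WT libraries in grey, pals-25(icb98) libraries in orange, a symbol for each replicate number (replicate 2 filled) and lines for group means. The filled grey square, WT replicate 2, lies below the other WT libraries in 12 of 13 genes, and the filled orange square is the lowest mutant library in 11 of 13.

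The abu gene of lowest level in the mutant was abu-9, whose WT libraries did not follow the order of the others. It had 5.16, 4 and 1.53 CPM in WT and 14.6, 11.2 and 12 CPM in the mutant, a log2 change of 1.82 ± 0.43 (SE, adjusted p = 0.0343, edgeR). The call was lost without WT replicate 2 (adjusted p = 0.0765, edgeR) and without mutant replicates 1, 2 or 3 (0.125, 0.0884 and 0.103). Its neighbour on chromosome X, pqn-57, lies 1121 bp away and was added to the named genes after its values were seen. In pqn-57 the CPM was 6.24, 3.05 and 16.4 in WT and 52.6, 42.2 and 56.1 in the mutant (log2 change 2.56 ± 0.59, SE, adjusted p = 0.0332, edgeR). WT replicate 3 was thus the lowest library for abu-9 and the highest WT library for pqn-57. The pqn-57 call was lost when any library except WT replicate 3 was left out (adjusted p from 0.0505 without WT replicate 2 to 0.111 without mutant replicate 1, edgeR).

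Summing the neighbours pqn-57 and abu-9, also a choice made after the data were seen, gave 11.4, 7.05 and 17.9 CPM in WT and 67.1, 53.3 and 68.1 CPM in the mutant. The sum had a log2 change of 2.38 ± 0.34 (SE) and an adjusted p of 0.00846 in edgeR. How the reads were divided between this pair was not tested.

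The most abundant abu gene in both groups was abu-14, which is needed for the pharyngeal cuticle. On the TPM scale, which allows for length, it had 344, 178 and 296 in WT and 426, 369 and 400 in the mutant, against 183.6 TPM on average in the mutant for the next most abundant abu gene, abu-11. In CPM the values were 509, 258 and 441 in WT and 643, 538 and 594 in the mutant. The mutant libraries were all above the WT libraries, yet the log2 change of 0.55 ± 0.25 (SE) had an adjusted p of 0.166 in edgeR. Without WT replicate 2 the change was smaller, 0.32, and passed the threshold (adjusted p = 0.0371, edgeR).

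Only abu-13 of the 13 abu genes fell, and abu-12 had lower values without a call. Together with abu-10 they were the abu genes with more than 4 coding exons, 7 in abu-13 and 13 in abu-12. The CPM of abu-13, on chromosome III, was 236, 135 and 224 in WT and 102, 111 and 89.8 in the mutant. For abu-12, on chromosome X, it was 161, 73.9 and 147 in WT and 75.9, 81 and 72.8 in the mutant. All mutant libraries were below the WT libraries for abu-13, whereas for abu-12 WT replicate 2 lay among the mutant libraries. The log2 change of abu-13 was -0.97 ± 0.22 (SE, adjusted p = 0.0317, edgeR), and the call was lost when any library except WT replicate 2 was left out (adjusted p from 0.0739 without WT replicate 1 to 0.117 without mutant replicate 1 or 3). For abu-12 it was -0.73 ± 0.28 (adjusted p = 0.122, edgeR) with all libraries and -1.01 (adjusted p = 1.77e-07) without WT replicate 2. The exons of abu-13 overlap those of the coding gene F57B9.3, and since the strand setting of the library is not given in the sources used here, reads of the 2 genes may not be separable.

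Among the pqn genes, the largest rises were those of the neighbours pqn-90 and pqn-91 on chromosome IV (15289901 to 15291262 on the minus strand and 15291907 to 15293443 on the plus strand, 644 bp apart), each with 2 coding exons. The CPM of pqn-90 was 4.22, 2.08 and 3.2 in WT and 56.4, 43 and 50.1 in the mutant. For pqn-91 the CPM was 6.75, 1.89 and 3.27 in WT and 74.8, 60.1 and 66.4 in the mutant. Both genes were near the bottom of their range in all WT libraries, lowest in WT replicate 2. The log2 changes were 3.97 ± 0.27 (SE, adjusted p = 6.28e-04, edgeR) and 4.07 ± 0.46 (0.00413), 15.7-fold and 16.8-fold. Both calls held in every fit that left out a library, and the summed pair had a log2 change of 4.03 (adjusted p = 0.00227, edgeR).

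The gene pqn-2, which lies 615 bp from abu-1, and the genes pqn-54, pqn-71 and pqn-63 also had 2 or 3 coding exons and rose. In pqn-2 the CPM was 65.7, 27 and 59.2 in WT and 181, 143 and 173 in the mutant (log2 change 1.71 ± 0.33, SE, adjusted p = 0.0206, edgeR). In pqn-54 it was 99.96, 41.9 and 89.1 in WT and 237, 188 and 230 in the mutant (1.50 ± 0.32, adjusted p = 0.0275, edgeR). These genes had WT replicate 2 at 43.3% and 44.4% of the mean of the other WT libraries, as in the abu genes named above. In pqn-71, a gene of low level, the CPM was 1.73, 0.557 and 2.19 in WT and 10.7, 9.1 and 12.5 in the mutant (2.85 ± 0.46, adjusted p = 0.0125, edgeR). The least certain was pqn-63, named after its values were seen, with a log2 change of 1.13 ± 0.29 (SE, adjusted p = 0.0421, edgeR). The calls of pqn-2, pqn-54 and pqn-63 were lost without WT replicate 3 and without any mutant library (adjusted p from 0.0561 to 0.141, edgeR), and that of pqn-71 without mutant replicate 1 (0.0573) or mutant replicate 3 (0.0554). Summed with abu-1, pqn-2 had a log2 change of 1.87 (adjusted p = 0.0144, edgeR).

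The other called risers among the pqn genes had 6 to 11 coding exons. The CPM of pqn-72 was 9.59, 6.59 and 8.68 in WT and 40.5, 31.2 and 41.2 in the mutant, and that of pqn-36 was 17.2, 10.9 and 16.9 in WT and 55.7, 47.7 and 56 in the mutant. For pqn-52 it was 180, 157 and 180 in WT and 249, 229 and 244 in the mutant. All 3 genes had mutant libraries above WT libraries, with WT replicate 2 lowest by a smaller margin than in the abu genes. Their log2 changes were 2.18 ± 0.18 (SE, adjusted p = 0.0013, edgeR), 1.82 ± 0.19 (0.00321) and 0.48 ± 0.07 (0.00855), and none of these calls was lost on leaving out a library. At transcript level the rise of pqn-72 lay in transcripts c and d, which had 4.21, 2.18 and 4.25 TPM and 1.24, 1.13 and 0.986 TPM in WT against 16, 12.4 and 16.2 TPM and 8.82, 6.56 and 8.98 TPM in the mutant, while transcripts a and b stayed under 1 TPM in each library.

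In pqn-37 and pqn-74 the WT libraries were ordered differently from each other. In pqn-37 the CPM was 9.25, 10.2 and 6.79 in WT and 21, 18.2 and 18.1 in the mutant (log2 change 1.13 ± 0.17, SE, adjusted p = 0.00908, edgeR), with WT replicate 2 the highest of the WT libraries. In pqn-74, the most abundant called riser of the pqn genes, it was 275, 128 and 228 in WT and 515, 435 and 486 in the mutant (1.19 ± 0.28, adjusted p = 0.0331, edgeR), with WT replicate 2 at 50.7% of the others. The pqn-37 call was lost without mutant replicate 1 (adjusted p = 0.0516, edgeR), and the pqn-74 call without WT replicate 3 or any mutant library (0.0825 to 0.118).

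**Figure D3:**
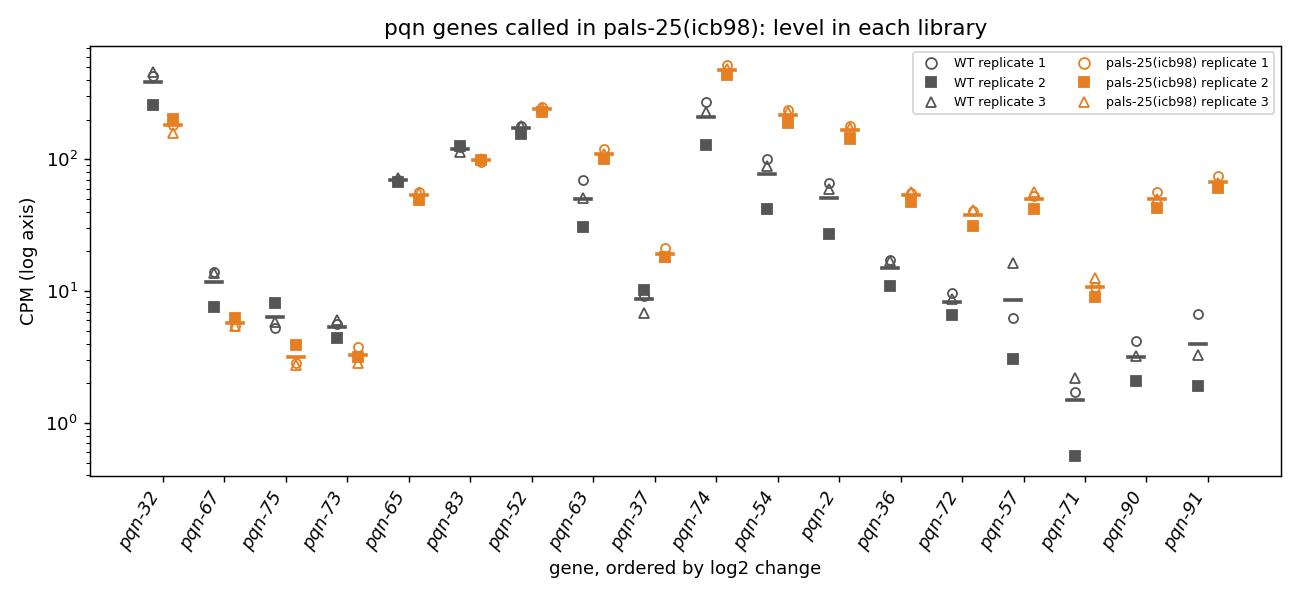
CPM on a log axis is plotted for the 18 called pqn genes, ordered by log2 change, with WT libraries in grey, pals-25(icb98) libraries in orange, a symbol for each replicate number (replicate 2 filled) and lines for group means. WT replicate 2 is the lowest library in 11 of the 12 genes that rose.

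The 6 pqn genes that fell had 5 or more coding exons and changed by about 2-fold at most. The most abundant was pqn-32 on chromosome II, with 433, 257 and 463 CPM in WT and 183, 203 and 160 CPM in the mutant (log2 change -1.08 ± 0.23, SE, adjusted p = 0.0274, edgeR). In pqn-67, on chromosome V, the CPM was 13.9, 7.63 and 13.7 in WT and 5.48, 6.3 and 5.45 in the mutant (-1.03 ± 0.25, adjusted p = 0.037, edgeR). Both had the order seen in abu-13, with WT replicate 2 between the other WT libraries and the mutant. In pqn-75, which encodes a protein of the pharyngeal gland cells, WT replicate 2 was instead the highest library, with 5.23, 8.07 and 5.86 CPM in WT and 2.87, 3.9 and 2.74 CPM in the mutant (-1.01 ± 0.23, adjusted p = 0.0302, edgeR). Exons of pqn-75 overlap those of C35B1.8 and W03D2.9. The calls of pqn-32 and pqn-67 were lost when any library except WT replicate 2 was left out (adjusted p from 0.0687 to 0.139, edgeR), and that of pqn-75 without WT replicate 3 or any mutant library (0.0518 to 0.129).

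Smaller falls were called for pqn-73, pqn-65 and pqn-83. In pqn-65 the CPM was 69.7, 67.3 and 72.5 in WT and 56.9, 49.1 and 55.1 in the mutant (log2 change -0.38 ± 0.07, SE, adjusted p = 0.0165, edgeR). In pqn-83 it was 123, 125 and 114 in WT and 95.7, 99.3 and 99.7 in the mutant (-0.30 ± 0.05, adjusted p = 0.0149, edgeR). WT replicate 2 was close to the other WT libraries in these 2 genes. In pqn-73 the CPM was 5.59, 4.43 and 6 in WT and 3.78, 3.16 and 2.85 in the mutant (-0.71 ± 0.18, adjusted p = 0.0397, edgeR). Each of the 3 calls was lost on leaving out some libraries, namely WT replicate 3 (0.0594) or mutant replicate 3 (0.0623) for pqn-65, any mutant library for pqn-83 (0.0591 to 0.081), and any library except WT replicate 2 for pqn-73 (0.082 to 0.138).

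The 34 tested pqn genes without a call had log2 changes between -0.72 (pqn-10) and 0.80 (pqn-31). They included the most abundant member of all by CPM, pqn-59, with 587, 624 and 593 CPM in WT and 630, 593 and 619 CPM in the mutant (log2 change 0.03 ± 0.04, SE, adjusted p = 0.657, edgeR). For pqn-87 the log2 change was -0.13 ± 0.05 (SE, adjusted p = 0.117, edgeR) and for pqn-22 it was -0.19 ± 0.08 (0.143). Values of pqn-41, whose protein acts in the death of the male linker cell, were 63.8, 75.5 and 70.3 CPM in WT and 64.3, 59.3 and 64.6 CPM in the mutant (-0.16 ± 0.08, adjusted p = 0.198, edgeR), and those of pqn-21 were 32.3, 36.9 and 31.2 CPM and 29.1, 27.7 and 29.6 CPM (-0.22 ± 0.08, adjusted p = 0.105, edgeR). In these 5 genes WT replicate 2 was slightly the highest of the 3 WT libraries. Exons of pqn-59, pqn-87, pqn-22 and pqn-41 overlap those of another coding gene each.

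WT replicate 2 lay lower than the other WT libraries in nearly all abu genes and about as often lower as higher in the pqn genes. Among the WT libraries alone, it was the lowest in 12 of 13 abu genes and in 27 of 52 tested pqn genes, against 44.9% of all tested genes. It was the lowest of all 6 libraries in 10 of 13 abu genes and in 19 of 52 tested pqn genes (36.5%), where 33.5% of all tested genes had it lowest. This second count depends on the direction of change. In 11 abu genes every mutant library was above every WT library, against 24.4% of all tested genes, so the lowest had to be a WT library. On the log2(CPM + 0.5) scale the median difference of WT replicate 2 from the mean of WT replicates 1 and 3 was -0.94 over the abu genes and -0.05 over the pqn genes, and the latter changed sign with upper-quartile scaling (0.03). More than 2-fold below the other WT libraries were 4 abu and 6 pqn genes, against 9.12% of all tested genes. In all 22 members that rose, every mutant library was above every WT library, so the lowest library was a WT library in each. It was WT replicate 2 in 20 of 22. Mutant replicate 2 was the lowest mutant library in 21 of 22, against 34.0% of all tested genes. That share covers genes changing in either direction, and the share among all genes called higher was not computed. Over all tested genes, mutant replicate 2 was the mutant library nearest to WT. From WT replicate 1 it differed more than 2-fold at 915 genes, against 1229 and 1293 for mutant replicates 1 and 3. From WT replicate 3 the numbers were 967, 1334 and 1373. Relative to the WT mean, the median abu gene stood at 0.36, -0.62 and 0.28 in WT replicates 1 to 3 and at 2.11, 1.74 and 2.09 in mutant replicates 1 to 3, on the same log2 scale. The corresponding pqn medians were 0.01, -0.03 and 0.01 in WT and 0.07, -0.00229 and 0.03 in the mutant.

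In a pair of pqn genes on chromosome V, WT replicate 2 was far higher than the other WT libraries, and these genes, pqn-31 and pqn-94, were singled out after their values were seen. The CPM of pqn-31 was 5.23, 18.2 and 4.43 in WT and 15, 14.6 and 18.9 in the mutant. That of pqn-94 was 5.88, 19.1 and 6.35 in WT and 16.2, 16 and 17.3 in the mutant. WT replicate 2 thus lay within or above the range of the mutant libraries in both genes, and no member other than these 2 was over 2-fold above the other WT libraries there (2.79% of all tested genes were). With all libraries neither was called, at log2 changes of 0.80 ± 0.56 (SE, adjusted p = 0.349, edgeR) and 0.66 ± 0.47 (0.363). Without WT replicate 2 the log2 changes were 1.74 (adjusted p = 8.11e-06, edgeR) and 1.43 (4.76e-07).

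**Figure D4:**
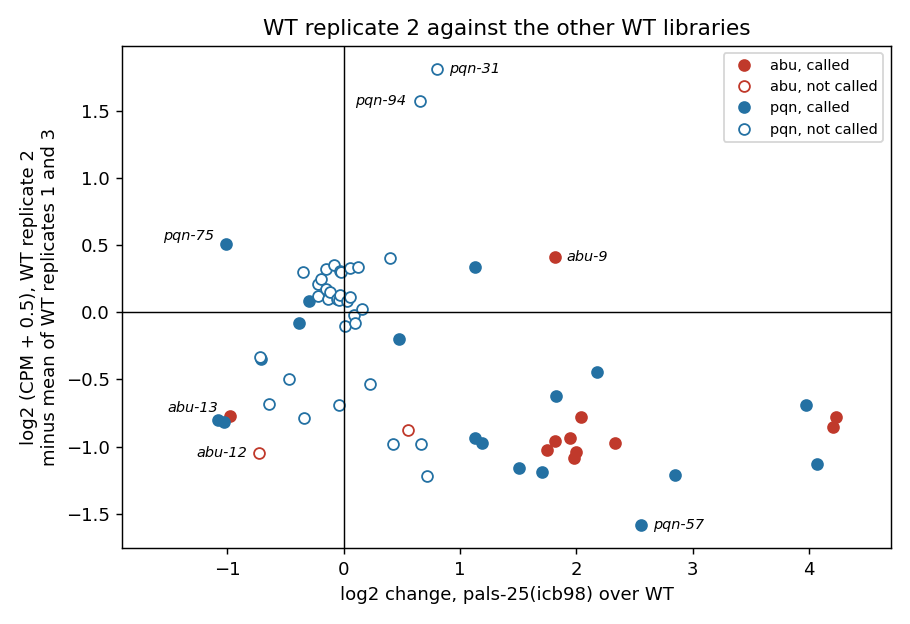
For each tested member, the log2(CPM + 0.5) of WT replicate 2 minus the mean of WT replicates 1 and 3 (y axis) is plotted against the log2 change of the mutant (x axis), with abu genes in red, pqn genes in blue and called genes filled. Most risers lie between -0.44 and -1.59 on the y axis, while pqn-31 and pqn-94 lie at 1.81 and 1.57.

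The members were also grouped by gene structure, a division at 4 coding exons chosen after their values were known and given as a description. All abu genes except abu-10, abu-12 and abu-13 have 4 or fewer coding exons, so this grouping overlaps that by symbol. Of the 23 tested members with 4 or fewer coding exons in the longest annotated model, 16 rose and none fell, with a median log2 change of 1.82. None of the 23 had a lower value at an unadjusted p under 0.05 in edgeR, and DESeq2 and limma-voom also called 16 and 0. In the fit without WT replicate 2, however, 17 rose and 1 fell: abu-9 and pqn-57 lost their calls, abu-14, pqn-31 and pqn-94 gained one, and pqn-68 was called lower (log2 change -0.63, adjusted p = 0.00357, edgeR). Leaving out any other library gave 8 (without mutant replicate 1) to 15 higher and 0 lower. Of the 42 with 5 or more coding exons, 6 rose and 7 fell, with a median of -0.04 (8 and 12 without WT replicate 2, 4 and 1 without mutant replicate 1). Among the pqn genes alone, 7 of 13 with 4 or fewer coding exons rose and none fell, against 5 higher and 6 lower of 39 with more. These counts were 8 and 1 of 13, and 7 and 10 of 39, without WT replicate 2, and without mutant replicate 1 they were 2 and 0, and 3 and 1. Over all tested genes, 12.1% of those with 4 or fewer coding exons were called higher and 8.8% lower, and of those with 5 or more 8.63% and 12.1% (23.2% and 15.4%, and 17.5% and 20.4%, without WT replicate 2). Without mutant replicate 1 these all-gene shares were 5.70% and 1.55%, and 3.33% and 2.27%. WT replicate 2 was the lowest library in 17 of the 23 and in 12 of the 42, counts that depend on the direction of change. Among the WT libraries alone it was the lowest in 18 of the 23 and in 21 of the 42. The all-gene shares for the latter were 46.6% with 4 or fewer coding exons and 42.9% with 5 or more.

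**Figure D5:**
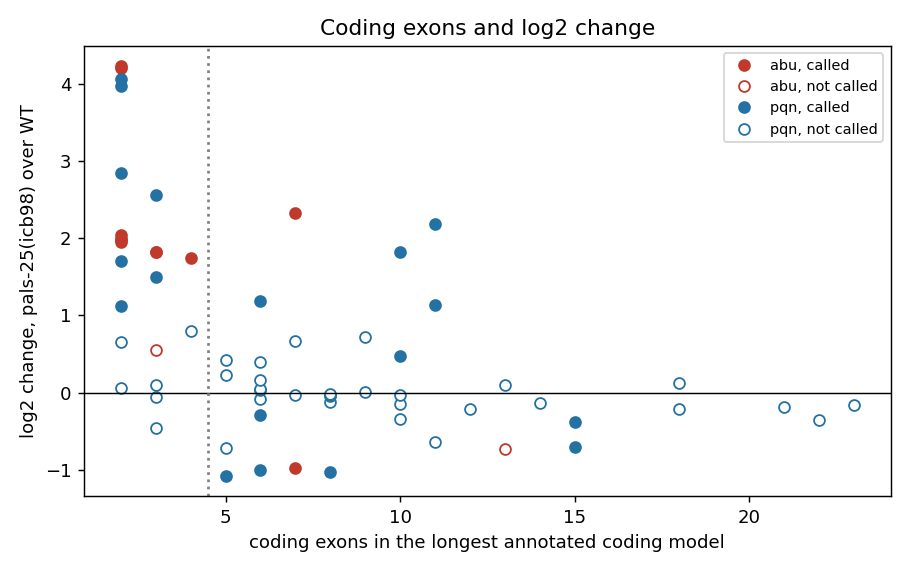
The log2 change of the mutant over WT (y axis) is plotted against the number of coding exons in the longest annotated coding model (x axis) for 65 members, with abu genes in red, pqn genes in blue, called genes filled and a dotted line between 4 and 5 exons. With all libraries, the called members left of the line lie above 0, and those right of it lie on both sides.

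Genes of the unfolded protein response, whose block gave the abu genes their name, were called about as often as all genes. Of 29 tested genes of the endoplasmic reticulum unfolded protein response, 4 rose and 3 fell, with a median log2 change of -0.04. Thus 24.1% were called, against 20.5% of all tested genes. Without WT replicate 2 there were 7 in each direction (24.1% each, against 19.3% and 18.2% of all genes). Without WT replicate 3 there were 1 and 0, against 5.57% and 3.52% of all genes. Those that rose included xbp-1, the spliced transcription factor of the pathway (0.63 ± 0.07, SE, adjusted p = 0.00411, edgeR), and hrdl-1 (0.33 ± 0.06, adjusted p = 0.0145, edgeR). Another was hsp-4, the inducible BiP chaperone, picked with its values in view (0.49 ± 0.12, adjusted p = 0.0367, edgeR). Among those that fell were pdi-2, a protein disulfide isomerase (-0.60 ± 0.13, adjusted p = 0.0279, edgeR), and manf-1 (-0.20 ± 0.05, adjusted p = 0.0353, edgeR). The level of hsp-4 was 468, 359.7 and 479 CPM in WT and 633, 576 and 621 CPM in the mutant, with WT replicate 2 lowest. Over the 29 genes WT replicate 2 was above the other WT libraries in 17, among them pdi-2, and below them in 9.

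Of 48 genes of the molt and apical matrix, 3 rose and 23 fell (37 by DESeq2), with a median log2 change of -1.12. The number that fell was 28 (58.3%, against 18.2% of all genes) without WT replicate 2. It was 10 (20.8%, against 1.98% of all genes) without mutant replicate 1. WT replicate 2 was more than 2-fold above the other WT libraries in 13 of the 48, none of them among the genes named next. The smallest adjusted p values were those of mlt-7, a peroxidase that cross-links cuticle (1.83, adjusted p = 1.04e-04, edgeR), and, in the other direction, of qua-1, a hedgehog-related protein (-1.51, 0.00266), and of lin-42, the worm period homolog (-1.10, 0.00361). In the chitin list 2 of 7 rose and 1 fell, 3 and 2 without WT replicate 2 and none when any other library was left out. The pharyngeal chitin synthase chs-2 fell (log2 change -0.56, adjusted p = 0.039, edgeR), from 70.6, 51.9 and 71.5 CPM to 46.1, 45.2 and 39.9 CPM, and the eggshell synthase chs-1 rose (0.65, adjusted p = 0.0495). Marker genes of pharynx muscle gave 1 higher and 3 lower of 12 (median -0.07), and those of the pharyngeal gland 2 higher and 2 lower of 9 (median 0.20). Leaving out WT replicate 2 gave 3 higher and 3 lower of 12 muscle markers. Of the 10 gland markers tested in that fit, 6 were higher and 1 lower. Leaving out WT replicate 3 gave 1 higher and 1 lower for muscle markers and none for gland markers. Over all tested genes, 9.8% were called higher and 10.7% lower. These shares were 19.3% and 18.2% without WT replicate 2, and 5.57% and 3.52% without WT replicate 3. Summed pharynx muscle markers ranged from 2071 to 2641 CPM in WT, highest in WT replicate 2, and from 2089 to 2244 CPM in the mutant.

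Oocyte markers, and the summed adult epidermis and yolk markers, had an order of libraries like that of the abu genes. Of 9 adult epidermis and yolk markers 6 rose (median log2 change 1.77, 5 higher and 1 lower without WT replicate 2), among them the adult cuticle collagen col-19 (3.47, adjusted p = 0.00923, edgeR) and the vitellogenin vit-5 (2.53, 0.00801). Their summed level was 7104, 3463 and 7262 CPM in WT and 15764, 13537 and 18337 CPM in the mutant, and WT replicate 2 was lowest in 8 of the 9. Mutant replicate 2 was the lowest mutant library in 5 of the 9. Not called were rol-1, vit-3 and vit-4, named with their values in view. The CPM of rol-1 was 1945, 782 and 1667 in WT and 1300, 1289 and 1217 in the mutant. In vit-3 and vit-4, mutant replicates 1 and 2 were below WT replicates 1 and 3. Of 12 oocyte markers 4 rose in edgeR and 12 in DESeq2 (median 0.92), and WT replicate 2 was lowest in all 12. All 12 were called higher in edgeR without WT replicate 2, and 0 without any other library. Of all tested genes, edgeR called 9.8% higher and 10.7% lower with all libraries, and 19.3% and 18.2% without WT replicate 2. Without any other library, 4.21% to 7.05% of all genes were called higher. The oocyte markers had a summed 875, 424 and 899 CPM in WT and 1532, 1325 and 1576 CPM in the mutant. None of 14 sperm markers or 12 germline markers was called (medians 0.56 and 0.15), although WT replicate 2 was lowest in 13 and 11 of them, with summed sperm marker levels of 722, 274 and 738 CPM in WT and 873, 784 and 901 CPM in the mutant. In edgeR none of the sperm markers and 1 of the germline markers had an unadjusted p under 0.05. DESeq2 called 0 and 1 of them, and without WT replicate 2 edgeR called 6 sperm markers higher and 2 lower, and 5 germline markers higher and 1 lower. The part of these markers in the values of the abu and pqn genes was not tested.

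Among the other tissue lists, epidermis markers gave 1 higher and 4 lower of 11 (median log2 change -0.27). Of these, bli-1, a cuticle collagen, was at -1.60 (adjusted p = 0.00567, edgeR). The marker called higher was the collagen col-12, picked with its values in view, at 1.54 (adjusted p = 0.0161, edgeR). Summed epidermis markers had 3945 to 4208 CPM in WT and 4497 to 5013 CPM in the mutant. Abundant collagens weigh most in this sum, and the 4 markers called lower went the other way. The CPM of col-12 was 637, 298 and 535 in WT and 1543, 1306 and 1426 in the mutant. For col-10, also picked with its values in view and not called, it was 995, 1726 and 868 in WT and 1801, 1586 and 1671 in the mutant. Intestine markers gave 2 higher of 11 (median 0.13, 4 higher and 1 lower without WT replicate 2). Body wall muscle markers gave 1 higher and 1 lower of 12 (median -0.09). No neuron marker of 12 was called (median -0.00394), with 1 at an unadjusted p under 0.05 in edgeR, 0 called by DESeq2 and 2 called in edgeR without WT replicate 2. The all-gene shares beside these lists were 9.8% higher and 10.7% lower, and 19.3% and 18.2% without WT replicate 2.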

How the data were processed

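RNA from whole L4 animals was sequenced in 3 WT and 3 pals-25(icb98) libraries. The authors estimated transcript abundance with kallisto against the WS235 transcriptome and deposited estimated counts per transcript with transcript and effective lengths. They then ran sleuth, whose results were not used here. Tool versions, the read length and the strandedness were not given in the sources used here. Effective lengths served only to compute TPM.

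The estimated counts of 35862 transcripts were summed to 22010 genes by sequence name and rounded. Of these, 21842 (99.2%) matched the Ensembl 115 annotation (WBcel235), the source of symbols, exons and coordinates (counted from 1). Tests used edgeR 4.0.16 under R 4.3.3 (quasi-likelihood F-test, robust, TMM, filterByExpr at a minimum count of 10, group as the only term), with Benjamini-Hochberg adjustment over 16166 genes and calls at 0.05. The script was tested on simulated data. Each SE was derived from the log2 change and its F statistic. A pseudocount of 0.5 CPM was used only for differences between libraries. Depths of 40709626 to 47297002 counts leave counting error small except for genes of few counts. Libraries of 1 group differed by more than sampling noise in each pair. Replicates are called biological in the labels.

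Members, lists and tests were chosen with earlier results of these data known. Named were every abu gene, the pqn genes called in either direction with smallest adjusted p (up to 10 each), the 6 pqn genes of highest mean CPM, pqn-21, pqn-41, pqn-59 and pqn-75, members too low to test, and up to 4 genes of smallest adjusted p of each other list. Any other gene was picked with its values in view, which is stated beside it. The alternatives tried were DESeq2 1.42.0, limma 3.58.1, other scaling factors, filters and units, a replicate block and leaving out each library.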

Additional observations from a re-analysis of the deposited data

How the results depend on the processing

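No member changed direction to a call on the other side under any alternative. The 10 abu genes called higher and the abu median of 1.95 stayed close under DESeq2, limma, other scaling, other filters and other units (10 genes in each, medians 1.93 to 1.996). DESeq2 called 4781 genes in all and added 4 pqn genes to the member calls, pqn-13, pqn-53, pqn-80 and pqn-92. Leaving out each library in turn gave 1014 to 6136 called genes, 7 to 10 abu genes higher and 0 to 2 lower, 5 to 15 pqn genes higher and 0 to 11 lower, abu medians of 1.70 to 2.14 and pqn medians of -0.013 to 0.062. The lowest count of called genes was without mutant replicate 1 and the highest without WT replicate 2. Of the 29 members called, 12 kept the call whichever library was left out, all of them higher, and 17 lost it at least once, 10 higher and all 7 lower. Leaving out WT replicate 2 lost 2 calls and added 11, and leaving out any other library added none.

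Replicate numbers were not taken as pairs in the main fit. Correlations of deviations from the group mean were 0.08, 0.32 and 0.18 for same-numbered WT and mutant libraries. Those of different number ran from -0.31 (WT replicate 1 with mutant replicate 2) to 0.22 (WT replicate 1 with mutant replicate 3). The highest value was that of WT replicate 2 with mutant replicate 2. Whether libraries of the same number share an effect was not tested. With a replicate block, 2194 genes were called, with 10 abu and 12 pqn genes higher, 0 abu genes and 3 pqn genes lower. The calls lost were those of pqn-32, pqn-67, pqn-73 and abu-13, and the cause was not tested.

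The alternative that merges members with near-identical proteins was not run, as no protein sequences were used here. Few counts limit genes such as pqn-10, pqn-71, pqn-84 and pqn-16, and division of reads between related copies limits the abu genes and their neighbours.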
